A study of Homo sapiens with 9 samples.

Results

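Cholesterol and fatty acids are made from the same cytosolic acetyl-CoA, and 31 genes of this synthesis were followed here in OVCAR4 cells, out of 61487 genes in the count table. They were taken by gene symbol from a list drawn up with earlier results of these data known: 17 enzymes of the sterol branch, 8 enzymes of the fatty acid branch, 5 regulators and the sterol transfer protein STARD4. OVCAR4 is an established line of high-grade serous ovarian carcinoma, and all 9 RNA-seq libraries were made from it. The 3 groups of 3 wells were Pt-resistant cells given EPZ015666, a small-molecule inhibitor of the arginine methyltransferase PRMT5, at 5 uM for 5 days, Pt-resistant cells without the inhibitor, and naive cells without the inhibitor. Per the study's methods the cells not given EPZ015666 had DMSO, and the Pt-resistant cells were made by continuous exposure of the line to cisplatin. Some of its figure legends call resistant OVCAR4 cells carboplatin-resistant. No other resistant derivative of OVCAR4 is described, so that selection in this derivative and resistance as such cannot be told apart. The stated aim of the comparisons was to find genes regulated by PRMT5 in chemoresistance. Wells of a plate are the replicates, and p-values measure only the spread between these wells, which may be technical.

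In the sterol branch, acetyl-CoA units are joined by the thiolase ACAT2 and the synthase HMGCS1, carried through mevalonate to farnesyl diphosphate and squalene, and then closed into the ring system and trimmed to cholesterol. ACLY and ACSS2 supply acetyl-CoA, which both branches use, and are counted here with the fatty acid branch. In the fatty acid branch, ACACA and FASN build palmitate, and ELOVL6 and SCD lengthen and desaturate it. FADS1 and FADS2, also counted in this branch, act in the synthesis of long polyunsaturated fatty acids. Both branches are known to be driven by the SREBP transcription factors, encoded by SREBF1 and SREBF2, which the escort protein SCAP carries from the endoplasmic reticulum to the Golgi when sterols are low and which INSIG1 and INSIG2 retain when sterols are high. SREBP-2 is known mainly for the sterol genes and SREBP-1c for the fatty acid genes, and their sites in promoters usually lie beside sites for the factors NF-Y, which binds CCAAT, and Sp1, which binds GC-rich boxes.

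Promoter windows from RefSeq (GRCh38.p14, 250 bases before to 50 bases after the transcription start) were at hand for 27 of the 31 genes, in 38 windows, since 9 genes had more than 1 start. Of these windows, 4 are shown, chosen after the values were seen: HMGCS1 and MVK were among the sterol genes that rose most with EPZ015666, and PMVK was the one that fell most. SREBF2 encodes the factor SREBP-2 and, of the 27 genes searched, is the only one with a full match to the sterol regulatory element. ACAT2, FDFT1, SQLE and FASN had no window and were not searched. Capitals mark CCAAT on either strand (ATTGG when it lies on the other strand) and, in SREBF2, also the element TCACNCCAC.
HMGCS1, chr5:43313363-43313662, minus strand, 1 of 2 windows: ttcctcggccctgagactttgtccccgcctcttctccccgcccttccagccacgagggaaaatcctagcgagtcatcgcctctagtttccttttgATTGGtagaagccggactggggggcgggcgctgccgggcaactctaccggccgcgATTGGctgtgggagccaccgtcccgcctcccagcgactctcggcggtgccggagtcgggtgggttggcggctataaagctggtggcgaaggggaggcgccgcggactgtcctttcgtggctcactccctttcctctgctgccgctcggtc
MVK, chr12:109573544-109573843, plus strand: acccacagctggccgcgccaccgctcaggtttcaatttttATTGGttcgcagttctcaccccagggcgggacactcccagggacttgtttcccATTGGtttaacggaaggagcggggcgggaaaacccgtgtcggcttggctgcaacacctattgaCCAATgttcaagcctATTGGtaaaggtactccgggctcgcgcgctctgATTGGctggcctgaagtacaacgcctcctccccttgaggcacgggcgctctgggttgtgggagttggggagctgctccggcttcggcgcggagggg
PMVK, chr1:154936670-154936969, minus strand: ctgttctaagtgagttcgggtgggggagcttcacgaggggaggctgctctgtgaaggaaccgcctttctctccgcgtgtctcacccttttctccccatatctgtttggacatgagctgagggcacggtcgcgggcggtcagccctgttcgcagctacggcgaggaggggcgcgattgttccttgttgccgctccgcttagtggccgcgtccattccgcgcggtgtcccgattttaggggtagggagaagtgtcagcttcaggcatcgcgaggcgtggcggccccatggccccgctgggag
SREBF2, chr22:41832855-41833154, plus strand: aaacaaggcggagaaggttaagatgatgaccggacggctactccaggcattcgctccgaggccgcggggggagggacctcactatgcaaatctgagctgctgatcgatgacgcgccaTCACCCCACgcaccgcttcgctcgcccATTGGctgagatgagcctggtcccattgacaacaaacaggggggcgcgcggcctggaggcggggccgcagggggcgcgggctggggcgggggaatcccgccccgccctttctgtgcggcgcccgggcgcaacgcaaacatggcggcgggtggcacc
The MVK window held 5 CCAAT matches, the HMGCS1 window 2, the SREBF2 window 1, and in the PMVK window these letters were not found. Members with and without a match changed in both directions: the second HMGCS1 window held 0, the windows of FDPS and SCD, both lower with EPZ015666 than in Pt-resistant cells, held 3 and 2, and those of INSIG2 and ELOVL6, both higher, held 0.

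Searched on both strands, CCAAT was found in at least 1 window of 12 of the 14 sterol enzymes with a window, of 5 of the 7 fatty acid enzymes and of 2 of the 5 regulators, against 39.7% of all 27305 genes with a window. The 2 sterol enzymes without a match were PMVK and CYP51A1. Counted by window, CCAAT was in 73.7% of the sterol enzymes' windows, 58.3% of the fatty acid enzymes' windows and 34.6% of all 35116 windows. The GC box GGGCGG was in 13 of the 14 sterol enzymes and 7 of the 7 fatty acid enzymes, against 48.3% of all genes. The shares of all genes and windows include genes not expressed in these cells, whereas every member was expressed, so the sets are unlike. The full element TCACNCCAC was in 1.13% of all windows, and its core CACNCCAC, which lies within every full match, was in 5.87% of all windows and, of the members, in 2 sterol enzymes (IDI1 and SC5D), 2 fatty acid enzymes (SCD and ACACA) and 2 regulators (INSIG1 and SREBF2). The E-box CACGTG was in 7.26% of all windows and, of the members, in LSS, SC5D, SCAP and INSIG1. A match is a description of these 300 bases and not a measured binding site, and a missing match says nothing of the factor.

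All 31 genes passed the low-count filter, so every one was tested. Totals ran from 14320929 to 19114811 counts per library. PRMT5 mRNA did not pass the test in any of the 3 comparisons (log2 fold changes of -0.05, -0.01 and -0.06), which neither checks nor contradicts the labels, since EPZ015666 acts on the protein. Of 8 epithelial and serous markers, 7 averaged over 1 CPM (a gene's count as a share of the scaled library total, in parts per 1e6) and WT1 was near 0 in all groups. The adipocyte markers ADIPOQ, FABP4 and LEP were at 0 in every library. The sum of the 5 immune markers was 5.35 to 6.86 CPM in EPZ015666-treated cells, 0.60 to 0.93 CPM in Pt-resistant cells and 3.02 to 4.54 CPM in naive cells, and the 13 mitochondrially encoded mRNAs took 7.37% ± 1.04, 4.80% ± 0.37 and 7.12% ± 1.00 of counts (SD, n = 3 each) in the same 3 groups. The sum of the 5 fibroblast markers, of which 1 averaged over 1 CPM, was 10.4 to 13.9, 4.32 to 4.95 and 5.84 to 8.74 CPM, and that of the 4 endothelial markers, of which 3 did, was 85.0 to 99.5, 122.8 to 129.9 and 137 to 157 CPM, each in the same 3 groups. The epithelial and serous markers summed to 3071 to 3113, 3710 to 3834 and 3763 to 4018 CPM, and of the 7 tested, 4 were lower and 1 higher in Pt-resistant than in naive cells, 4 lower and 2 higher with EPZ015666 than in Pt-resistant cells, and 5 lower and 0 higher in EPZ015666-treated than in naive cells. In these 3 comparisons 71.4%, 85.7% and 71.4% of the 7 passed, against 59.1%, 62.4% and 63.4% of all genes tested. The immune, fibroblast and endothelial sums did not overlap between the groups compared below. The epithelial and serous sums overlapped between Pt-resistant and naive cells, and the mitochondrial shares between EPZ015666-treated and naive cells. The part of these levels in the results was not tested. Within the naive group replicate 2, and within the Pt-resistant group replicate 1, had the lowest value of the 3 libraries for 13 of the 17 sterol enzymes, so calls that rest on these libraries are given without them as well.

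The genes differed widely in level. Per kilobase of exon, naive cells held most of SCD (184 CPM per kb), FASN (140 CPM per kb), FDPS (114 CPM per kb) and HMGCS1 (102 CPM per kb), and least of HSD17B7 (1.33 CPM per kb). In Pt-resistant cells FDPS (135 CPM per kb) and SCD (135 CPM per kb) were level with each other, and in EPZ015666-treated cells FDPS (117 CPM per kb) stood above SCD (89.1 CPM per kb). Together the 31 genes took 0.514% ± 0.016 of counts in EPZ015666-treated cells, 0.495% ± 0.015 in Pt-resistant cells and 0.686% ± 0.053 in naive cells (SD, n = 3 each). In such bulk RNA, fewer cells that express a gene and less of its RNA per cell cannot be told apart.

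**Figure D1:**
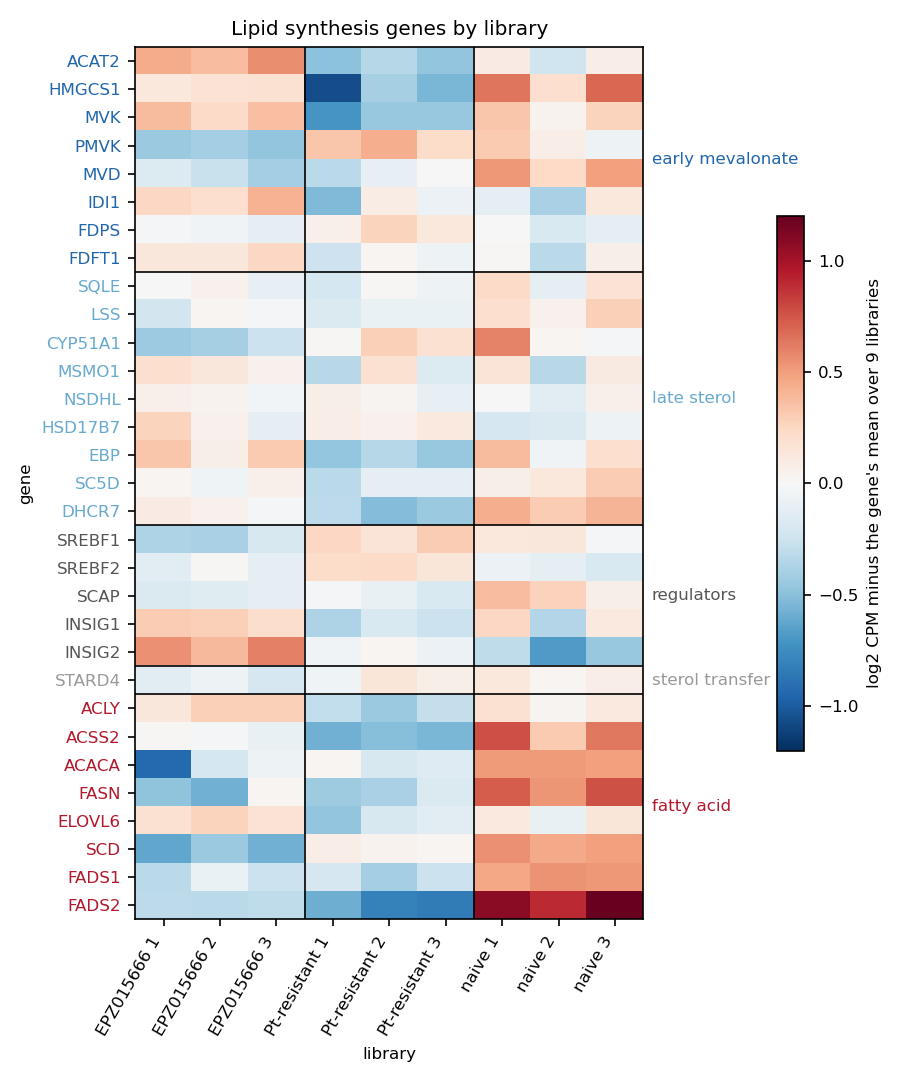
Each cell is the log2 CPM of a gene (rows, grouped by role) in a library (columns, replicates 1 to 3 of EPZ015666-treated, Pt-resistant and naive cells) minus the gene's mean over the 9 libraries, blue for lower and red for higher. The 8 fatty acid enzymes are red in most naive libraries, and the sterol enzymes are mixed, with HMGCS1 lowest in Pt-resistant replicate 1.

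The fatty acid branch was lower as a whole in Pt-resistant than in naive cells, and the sterol branch was mixed. All 8 fatty acid enzymes were lower in Pt-resistant cells, by 1.25-fold (ELOVL6) to 3.50-fold (FADS2), with a median log2 fold change of -0.70. Of the 17 sterol enzymes, 8 were lower, 2 were higher and 7 did not pass, with a median of -0.19. The median of all 14630 genes tested was 0.01, and in this comparison 59.1% of them passed the test (an adjusted p under 0.05 in edgeR's quasi-likelihood test), 29.8% as higher and 29.4% as lower. Over all 31 genes, 18 were lower and 4 higher. The share that passed was 100% of the fatty acid enzymes and 58.8% of the sterol enzymes, the latter near that of all genes. The higher calls rest on few libraries: without naive replicate 2 or Pt-resistant replicate 2 there were 2 higher genes and 0 higher sterol enzymes, and without naive replicate 3 or Pt-resistant replicate 1 there was 1 higher sterol enzyme.

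With EPZ015666, measured against Pt-resistant cells, the direction was mixed, with more higher than lower calls. Of the 17 sterol enzymes 8 were higher, 3 were lower and 6 did not pass, with a median log2 fold change of 0.19. Of the 8 fatty acid enzymes 4 were higher, 1 was lower (SCD, joined by ACACA without EPZ015666-treated replicate 3, which gave 2) and 3 did not pass, with a median of 0.25. The 4 higher ones include ACLY and ACSS2, whose acetyl-CoA both branches use. Among all genes tested 62.4% passed, 31.9% as higher and 30.5% as lower, with a median of 0.01. Over all 31 genes, 14 were higher and 7 lower, with a median of 0.07. The share that passed, 67.7%, was close to that of all genes, while more of it lay on the higher side. Without Pt-resistant replicate 1, the sterol enzymes were less one-sided, with 6 higher and 4 lower.

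Against naive cells, EPZ015666-treated cells were still lower in 6 of the 8 fatty acid enzymes (median log2 fold change -0.79), while the sterol enzymes were split into 3 higher, 6 lower and 8 that did not pass (median 0.04). Over all 31 genes 5 were higher, or 3 without naive replicate 2 or EPZ015666-treated replicate 3, and 15 were lower. Here 63.4% of all genes passed, 32.2% as higher and 31.2% as lower. The 3 comparisons share libraries, so they are not independent of each other, and in each the members' values are given side by side below.

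**Figure D2:**
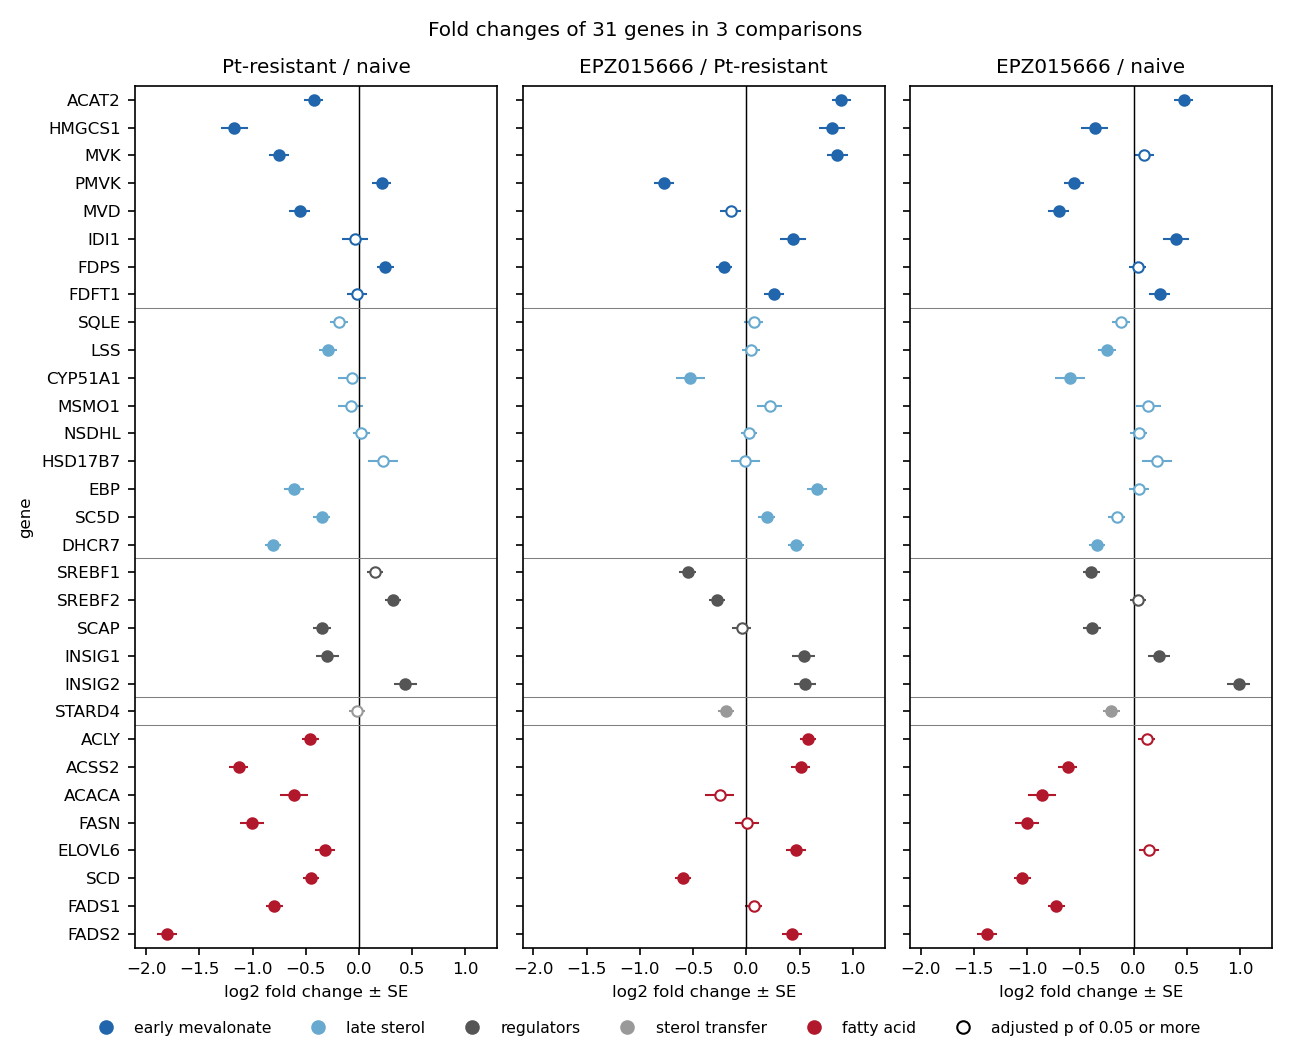
The log2 fold change of each gene (points, with bars for 1 SE) is shown on the horizontal axis in the 3 comparisons, with open points where the adjusted p was 0.05 or more. In the left panel all 8 fatty acid enzymes lie left of 0, from -0.32 (ELOVL6) to -1.81 (FADS2), and in the middle panel ACAT2, MVK and HMGCS1 lie farthest right.

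FADS2, the desaturase that opens the synthesis of long polyunsaturated fatty acids, showed the largest difference of all 31 genes. It had 31.7, 31.6 and 31.9 CPM in EPZ015666-treated cells, 26.2, 22.5 and 22.0 CPM in Pt-resistant cells, and 83.7, 73.4 and 89.8 CPM in naive cells. The 3 naive libraries stood far above the other 6, and EPZ015666-treated libraries lay above Pt-resistant ones without overlap. Its log2 fold change was -1.81 ± 0.09 (SE, edgeR adjusted p = 8.32e-14) in Pt-resistant against naive cells, 0.43 ± 0.10 (SE, edgeR adjusted p = 0.000439) with EPZ015666 against Pt-resistant cells, and -1.38 ± 0.09 (SE, edgeR adjusted p = 5.11e-12) in EPZ015666-treated against naive cells. FADS1, its partner in the same pathway and its neighbour on chromosome 11, with 4.79% of its exon bases overlapping FADS2 on the other strand in GENCODE 29, had 157, 185 and 164 CPM in EPZ015666-treated cells, 169.7, 148 and 164 CPM in Pt-resistant cells, and 269, 285 and 280.4 CPM in naive cells. The naive libraries were again higher than all others, by 1.73-fold over Pt-resistant cells (log2 fold change -0.79 ± 0.08 SE, edgeR adjusted p = 1.04e-08), but EPZ015666-treated and Pt-resistant libraries overlapped and their difference did not pass (log2 fold change 0.07 ± 0.08 SE, edgeR adjusted p = 0.463).

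ACSS2, which makes acetyl-CoA from acetate, had 138, 135 and 129 CPM in EPZ015666-treated cells, 92.2, 96.5 and 94.0 CPM in Pt-resistant cells, and 234, 171 and 213 CPM in naive cells. The 3 groups did not overlap, and Pt-resistant cells were lowest. Its level was 2.19-fold lower in Pt-resistant than in naive cells (log2 fold change -1.13 ± 0.09 SE, edgeR adjusted p = 2.54e-10) and 1.43-fold higher with EPZ015666 than without (log2 fold change 0.51 ± 0.09 SE, edgeR adjusted p = 3.80e-05), yet still lower in EPZ015666-treated than in naive cells (log2 fold change -0.62 ± 0.09 SE, edgeR adjusted p = 2.36e-06). ACLY, which makes acetyl-CoA from citrate, had 287, 319 and 319.7 CPM in EPZ015666-treated cells, 213, 192 and 214 CPM in Pt-resistant cells, and 297, 268 and 285 CPM in naive cells. Here the EPZ015666-treated and naive libraries overlapped, with Pt-resistant libraries below both: the log2 fold change was -0.46 ± 0.08 (SE, edgeR adjusted p = 2.26e-05) in Pt-resistant against naive cells, 0.58 ± 0.08 (SE, edgeR adjusted p = 7.69e-07) with EPZ015666 against Pt-resistant cells, and 0.12 ± 0.08 (SE, edgeR adjusted p = 0.17) in EPZ015666-treated against naive cells, which did not pass.

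FASN, the fatty acid synthase, had 586, 546 and 829.7 CPM in EPZ015666-treated cells, 609.7, 624 and 723 CPM in Pt-resistant cells, and 1349.9, 1183 and 1390.0 CPM in naive cells. Pt-resistant cells held 2.01-fold less FASN mRNA than naive cells (log2 fold change -1.0 ± 0.12 SE, edgeR adjusted p = 8.04e-08), EPZ015666-treated cells were lower than naive cells by the same measure (log2 fold change -1.0 ± 0.12 SE, edgeR adjusted p = 6.65e-08), and EPZ015666-treated and Pt-resistant libraries overlapped throughout (log2 fold change 0.00 ± 0.11 SE, edgeR adjusted p = 0.979). Within the EPZ015666-treated group replicate 3 was well above the other two, and the coefficient of variation was 23.5%. ACACA, the carboxylase ahead of FASN, had 21.2, 35.0 and 38.8 CPM in EPZ015666-treated cells, 41.1, 35.4 and 36.3 CPM in Pt-resistant cells, and 57.5, 57.6 and 56.9 CPM in naive cells. It was lower than in naive cells in both Pt-resistant cells (log2 fold change -0.61 ± 0.13 SE, edgeR adjusted p = 0.000333) and EPZ015666-treated cells (log2 fold change -0.86 ± 0.13 SE, edgeR adjusted p = 5.75e-06), and EPZ015666-treated replicate 1 was lowest of all 9. With EPZ015666 against Pt-resistant cells the log2 fold change of ACACA was -0.25 ± 0.14 (SE, edgeR adjusted p = 0.114), and it passed only without EPZ015666-treated replicate 3 (-0.43, adjusted p = 0.0135) or with no low-count filter (-0.25, adjusted p = 0.0346).

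SCD, the desaturase that makes oleate, was the one fatty acid enzyme that fell with EPZ015666. It had 453, 513 and 467 CPM in EPZ015666-treated cells, 739, 716 and 709.7 CPM in Pt-resistant cells, and 1022, 954 and 978 CPM in naive cells. These form 3 separate steps, with 1.51-fold less in EPZ015666-treated than in Pt-resistant cells (log2 fold change -0.60 ± 0.08 SE, edgeR adjusted p = 3.49e-07) and 1.37-fold less in Pt-resistant than in naive cells (log2 fold change -0.45 ± 0.08 SE, edgeR adjusted p = 1.88e-05). EPZ015666-treated cells stood 2.06-fold below naive cells. ELOVL6, which lengthens palmitate, went the other way, with 44.9, 47.8 and 44.9 CPM in EPZ015666-treated cells, 28.6, 34.6 and 36.1 CPM in Pt-resistant cells, and 43.1, 37.4 and 43.8 CPM in naive cells. It was higher with EPZ015666 than in Pt-resistant cells (log2 fold change 0.47 ± 0.09 SE, edgeR adjusted p = 0.000157), lower in Pt-resistant than in naive cells (log2 fold change -0.32 ± 0.10 SE, edgeR adjusted p = 0.00554), and did not pass between EPZ015666-treated and naive cells (log2 fold change 0.15 ± 0.09 SE, edgeR adjusted p = 0.181).

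Summed over the 8 fatty acid enzymes, the level was 1852 ± 157 CPM in EPZ015666-treated cells, 1929 ± 65.7 CPM in Pt-resistant cells and 3241 ± 184 CPM in naive cells (SD, n = 3 each). The sum is carried mainly by FASN and SCD, and the naive libraries (3029 to 3357 CPM) did not overlap with the others. For the 17 sterol enzymes the sums were 2643 ± 33.2, 2189 ± 191 and 2723 ± 276 CPM in the same order of groups. Naive replicate 2, at 2404 CPM, was the only naive library below the EPZ015666-treated ones, and Pt-resistant replicate 1, at 1994 CPM, was the lowest of all.

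**Figure D3:**
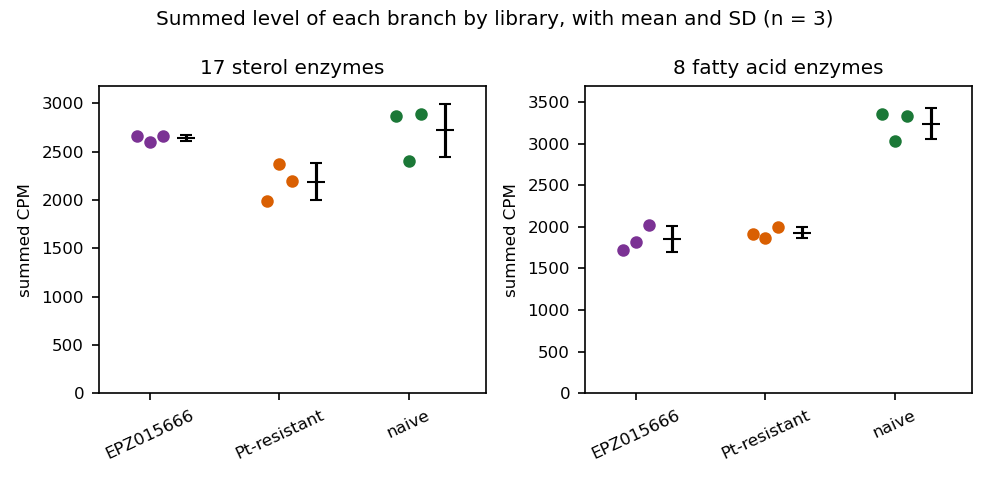
Points are the summed CPM of the 17 sterol enzymes (left) and the 8 fatty acid enzymes (right) in each library, with the mean and SD of each group of 3 in black, on axes that start at 0. Fatty acid sums lie between 1718 and 2025 CPM in the 6 Pt-resistant libraries with or without EPZ015666 and between 3029 and 3357 CPM in naive cells, while the sterol sums of EPZ015666-treated cells lie within the range of the naive ones.

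Among the early sterol enzymes, HMGCS1, which makes HMG-CoA, had 362, 374 and 376 CPM in EPZ015666-treated cells, 159, 251 and 226 CPM in Pt-resistant cells, and 516, 382 and 535 CPM in naive cells. Pt-resistant libraries were lowest without overlap, 2.25-fold below naive cells (log2 fold change -1.17 ± 0.13 SE, edgeR adjusted p = 2.59e-08), and EPZ015666-treated libraries lay between the other groups, 1.75-fold above Pt-resistant cells (log2 fold change 0.80 ± 0.12 SE, edgeR adjusted p = 5.93e-06). Against naive cells the value in EPZ015666-treated cells was -0.37 ± 0.12 (SE, edgeR adjusted p = 0.0123), and this call was lost without naive replicate 1 (-0.31, adjusted p = 0.055) or naive replicate 3 (-0.28, adjusted p = 0.0704) and with DESeq2 (-0.37, adjusted p = 0.107). ACAT2, the thiolase of the first step, had 292, 276 and 315 CPM in EPZ015666-treated cells, 152, 169 and 155 CPM in Pt-resistant cells, and 230.1, 181 and 227 CPM in naive cells. EPZ015666-treated libraries were highest and Pt-resistant ones lowest, with log2 fold changes of 0.89 ± 0.09 (SE, edgeR adjusted p = 7.06e-09) between these groups, -0.42 ± 0.09 (SE, edgeR adjusted p = 0.00024) in Pt-resistant against naive cells and 0.47 ± 0.09 (SE, edgeR adjusted p = 6.27e-05) in EPZ015666-treated against naive cells. In GENCODE 29, 52.3% of the exon bases of ACAT2 lie opposite TCP1 or SOD2, so its counts depend on how strand was used.

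MVK and PMVK, the kinases that add the first and the second phosphate to mevalonate, moved apart with EPZ015666. MVK had 52.4, 47.0 and 51.4 CPM in EPZ015666-treated cells, 24.6, 29.3 and 29.4 CPM in Pt-resistant cells, and 50.4, 41.5 and 48.4 CPM in naive cells. It was 1.69-fold lower in Pt-resistant than in naive cells (log2 fold change -0.75 ± 0.10 SE, edgeR adjusted p = 3.79e-07), 1.81-fold higher with EPZ015666 than without (log2 fold change 0.86 ± 0.10 SE, edgeR adjusted p = 4.45e-08), and EPZ015666-treated and naive libraries overlapped (log2 fold change 0.10 ± 0.09 SE, edgeR adjusted p = 0.347). PMVK had 41.2, 42.3 and 40.3 CPM in EPZ015666-treated cells, 70.7, 75.9 and 65.3 CPM in Pt-resistant cells, and 69.6, 59.2 and 53.7 CPM in naive cells. With EPZ015666 it was 1.71-fold lower than in Pt-resistant cells (log2 fold change -0.77 ± 0.09 SE, edgeR adjusted p = 1.26e-07) and 1.48-fold lower than in naive cells (log2 fold change -0.56 ± 0.09 SE, edgeR adjusted p = 1.34e-05). Pt-resistant and naive libraries of PMVK overlapped, and its call as higher in Pt-resistant cells (log2 fold change 0.21 ± 0.09 SE, edgeR adjusted p = 0.0454) was lost in 9 of 14 alternatives, among them without naive replicate 2 (0.19, adjusted p = 0.104), naive replicate 3 (0.13, adjusted p = 0.266), Pt-resistant replicate 1 (0.20, adjusted p = 0.0819) or Pt-resistant replicate 2 (0.15, adjusted p = 0.201), while without naive replicate 1 it was 0.32.

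MVD, the decarboxylase that yields isopentenyl diphosphate, had 59.3, 55.1 and 49.97 CPM in EPZ015666-treated cells, 53.0, 62.1 and 66.7 CPM in Pt-resistant cells, and 95.4, 78.5 and 93.6 CPM in naive cells. It was lower than in naive cells in both Pt-resistant cells (log2 fold change -0.56 ± 0.09 SE, edgeR adjusted p = 2.23e-05) and EPZ015666-treated cells (log2 fold change -0.70 ± 0.10 SE, edgeR adjusted p = 8.65e-07), and these libraries overlapped with each other (log2 fold change -0.15 ± 0.10 SE, edgeR adjusted p = 0.192, which passed only without Pt-resistant replicate 1, at -0.23 with an adjusted p of 0.0448). IDI1, the isomerase of the next step, had 266, 258 and 299 CPM in EPZ015666-treated cells, 155, 238 and 213 CPM in Pt-resistant cells, and 208, 171 and 244 CPM in naive cells. Only the EPZ015666-treated libraries stood apart, higher than Pt-resistant ones (log2 fold change 0.44 ± 0.12 SE, edgeR adjusted p = 0.00319, 0.28 without Pt-resistant replicate 1) and than naive ones (log2 fold change 0.40 ± 0.12 SE, edgeR adjusted p = 0.00621, not passed with DESeq2 at 0.39, adjusted p = 0.0819).

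FDPS, which makes farnesyl diphosphate, was the most abundant sterol enzyme per length and averaged 434 ± 14.8 CPM in EPZ015666-treated cells, 502 ± 37.5 CPM in Pt-resistant cells and 423 ± 26.0 CPM in naive cells (SD, n = 3 each). It was 1.19-fold higher in Pt-resistant than in naive cells and 1.16-fold lower with EPZ015666 than without. The first call was lost without naive replicate 2 (0.20, adjusted p = 0.0527) or Pt-resistant replicate 2 (0.18, adjusted p = 0.0699), and the second without Pt-resistant replicate 2 (-0.15, adjusted p = 0.133) or EPZ015666-treated replicate 3 (-0.18, adjusted p = 0.089). For FDFT1, the squalene synthase, the means were 75.4 ± 3.43 CPM in EPZ015666-treated cells, 62.9 ± 6.01 CPM in Pt-resistant cells and 63.6 ± 9.01 CPM in naive cells (SD, n = 3 each). It passed as higher in EPZ015666-treated cells against Pt-resistant cells (log2 fold change 0.26 ± 0.10 SE, edgeR adjusted p = 0.0197) and against naive cells (log2 fold change 0.24 ± 0.10 SE, edgeR adjusted p = 0.0297). Its difference from Pt-resistant cells was 0.19 (adjusted p = 0.0953) without Pt-resistant replicate 1 and 0.22 (adjusted p = 0.0836) without EPZ015666-treated replicate 3, and the difference from naive cells was 0.13 (adjusted p = 0.229) without naive replicate 2 and 0.21 (adjusted p = 0.11) without EPZ015666-treated replicate 3.

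Of the 9 late sterol enzymes, 4 were lower in Pt-resistant than in naive cells and the other 5 did not pass. The share that passed, 44.4%, was below the 59.1% of all genes. DHCR7, the reductase that finishes cholesterol, had 244, 237 and 225 CPM in EPZ015666-treated cells, 184, 159.5 and 169 CPM in Pt-resistant cells, and 309.8, 282 and 303 CPM in naive cells. Its 3 groups were separate, with Pt-resistant cells 1.75-fold below naive cells (log2 fold change -0.81 ± 0.08 SE, edgeR adjusted p = 4.34e-09) and EPZ015666-treated cells between them, 1.38-fold above Pt-resistant cells (log2 fold change 0.47 ± 0.08 SE, edgeR adjusted p = 1.43e-05). EBP, the sterol isomerase, had 96.7, 80.6 and 95.8 CPM in EPZ015666-treated cells, 55.8, 60.6 and 56.1 CPM in Pt-resistant cells, and 99.98, 74.8 and 88.5 CPM in naive cells. Pt-resistant libraries were below all others (log2 fold change -0.61 ± 0.10 SE, edgeR adjusted p = 8.36e-06 against naive cells), and EPZ015666-treated libraries were 1.58-fold above them (log2 fold change 0.66 ± 0.10 SE, edgeR adjusted p = 2.35e-06) and overlapped with naive ones (log2 fold change 0.05 ± 0.10 SE, edgeR adjusted p = 0.645).

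SC5D, the sterol desaturase, averaged 239 ± 9.16 CPM in EPZ015666-treated cells, 209.7 ± 17.8 CPM in Pt-resistant cells and 267 ± 22.4 CPM in naive cells (SD, n = 3 each). Its fall in Pt-resistant against naive cells was -0.35 ± 0.08 (SE, edgeR adjusted p = 0.000761), and its rise with EPZ015666 (log2 fold change 0.19 ± 0.08 SE, edgeR adjusted p = 0.0448) was lost in 5 alternatives, with values from 0.13 without Pt-resistant replicate 1 (adjusted p = 0.205) to 0.19 without EPZ015666-treated replicate 1 (adjusted p = 0.0921), and at 0.17 without EPZ015666-treated replicate 3 (adjusted p = 0.13). LSS, the cyclase that makes lanosterol, averaged 54.8 ± 4.86 CPM in EPZ015666-treated cells, 53.1 ± 1.88 CPM in Pt-resistant cells and 65.0 ± 5.38 CPM in naive cells (SD, n = 3 each). It was lower in Pt-resistant than in naive cells (log2 fold change -0.29 ± 0.09 SE, edgeR adjusted p = 0.00551) and lower in EPZ015666-treated than in naive cells (log2 fold change -0.25 ± 0.09 SE, edgeR adjusted p = 0.015). Its call against naive cells in EPZ015666-treated cells was lost without naive replicate 3 (-0.20, adjusted p = 0.0843) or EPZ015666-treated replicate 1 (-0.17, adjusted p = 0.116).

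CYP51A1, the lanosterol demethylase, had 11.9, 12.2 and 13.5 CPM in EPZ015666-treated cells, 16.3, 19.6 and 18.3 CPM in Pt-resistant cells, and 24.4, 16.4 and 16.0 CPM in naive cells. EPZ015666-treated libraries were below all others, with log2 fold changes of -0.53 ± 0.14 (SE, edgeR adjusted p = 0.00182) against Pt-resistant cells and -0.60 ± 0.14 (SE, edgeR adjusted p = 0.000584) against naive cells, and -0.37 against naive cells without naive replicate 1. In GENCODE 29, 79.4% of its exon bases are shared with other genes on the same strand, and STAR leaves out reads that fall in more than 1 gene, so that its counts are uncertain. The other 4 late enzymes, SQLE, MSMO1, NSDHL and HSD17B7, did not pass in any comparison, with log2 fold changes between -0.19 (SQLE in Pt-resistant against naive cells) and 0.23 (HSD17B7 in the same comparison). SQLE, the epoxidase known as a control point of the branch, averaged 124 ± 6.31 CPM in EPZ015666-treated cells, 118 ± 9.05 CPM in Pt-resistant cells and 134 ± 16.4 CPM in naive cells (SD, n = 3 each), and without naive replicate 2 it passed as lower in Pt-resistant cells (-0.29, adjusted p = 0.00485) and in EPZ015666-treated cells (-0.22, adjusted p = 0.0295), each against naive cells. It also passed in Pt-resistant against naive cells without Pt-resistant replicate 2 (-0.24, adjusted p = 0.039). MSMO1, a sterol methyl oxidase, passed as higher with EPZ015666 against Pt-resistant cells without Pt-resistant replicate 2 (0.38, adjusted p = 0.00488).

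**Figure D4:**
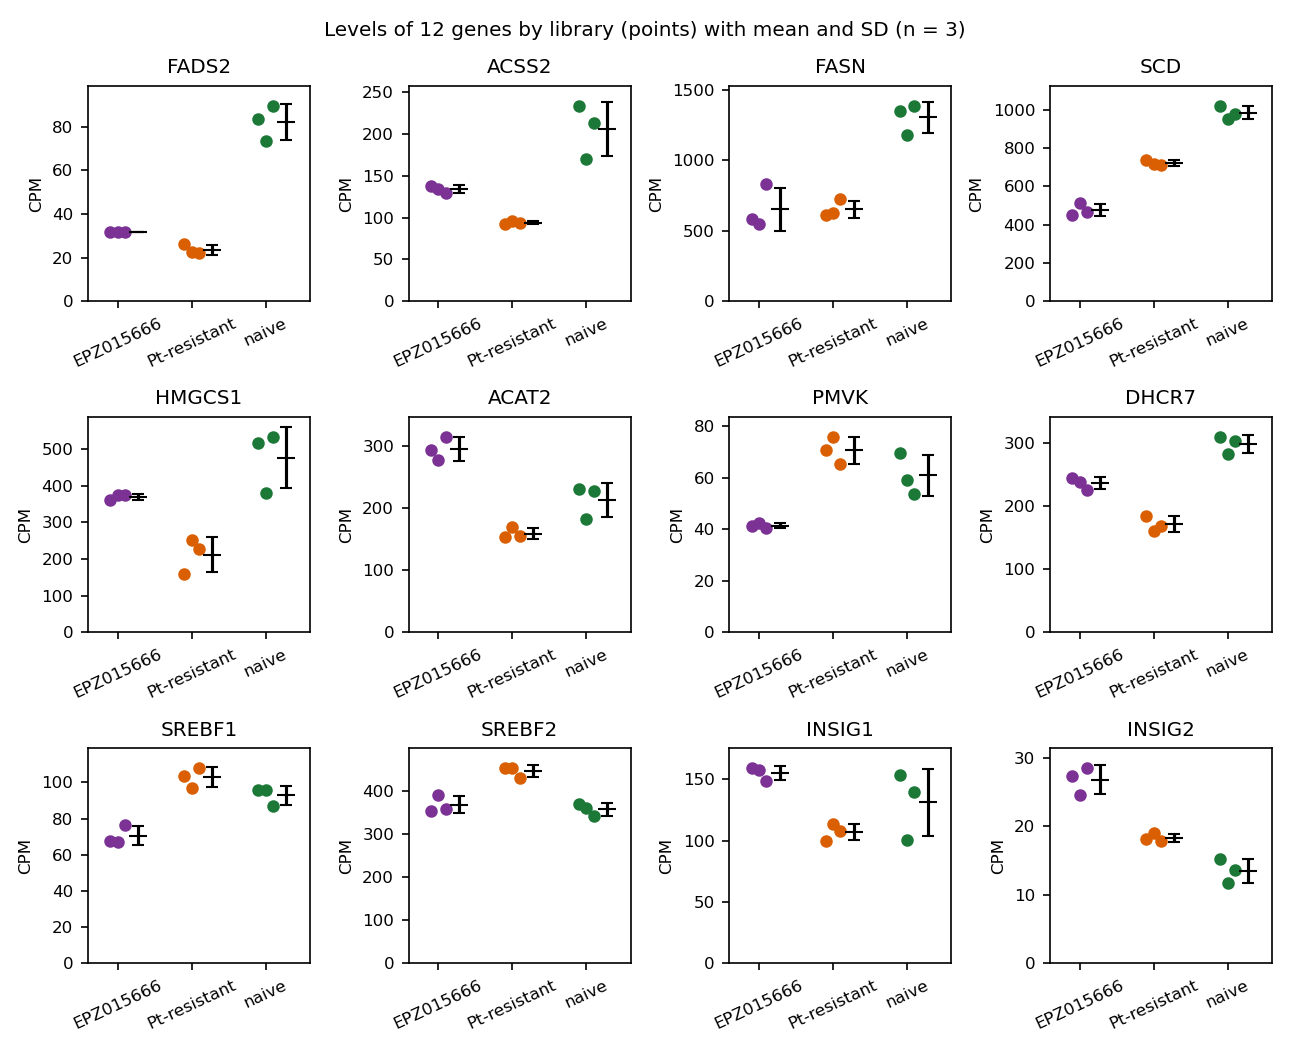
Points are the CPM of 12 genes in each library (EPZ015666-treated, Pt-resistant and naive, from left to right), with the mean and SD of each group of 3 in black, on axes that start at 0. FADS2, ACSS2 and FASN are highest in naive cells, PMVK is lowest in EPZ015666-treated cells, and INSIG2 is highest in EPZ015666-treated cells at 24.6 to 28.6 CPM.

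Of the 5 regulators, 2 were higher and 2 lower in each of the 3 comparisons. The share that passed was 80% in each, against 59.1%, 62.4% and 63.4% of all genes tested. All genes were also split about evenly between higher and lower, so these counts are not read as a result about the regulators. With INSIG1 lost, 1 was lower in Pt-resistant than in naive cells without naive replicate 1 or 3, and 1 was higher in EPZ015666-treated than in naive cells without naive replicate 2 or any 1 EPZ015666-treated replicate. SREBF2 had 354, 391 and 359 CPM in EPZ015666-treated cells, 453, 454 and 429.9 CPM in Pt-resistant cells, and 369.7, 361 and 341 CPM in naive cells. Pt-resistant libraries were above all others, with a log2 fold change of 0.32 ± 0.07 (SE, edgeR adjusted p = 0.000716) against naive cells and -0.28 ± 0.07 (SE, edgeR adjusted p = 0.00237) with EPZ015666 against Pt-resistant cells, and EPZ015666-treated and naive libraries overlapped. SREBF1 had 67.7, 67.1 and 76.5 CPM in EPZ015666-treated cells, 104, 97.2 and 108 CPM in Pt-resistant cells, and 95.6, 96.0 and 87.0 CPM in naive cells. It was lowest in EPZ015666-treated cells, by 1.46-fold against Pt-resistant cells (log2 fold change -0.55 ± 0.08 SE, edgeR adjusted p = 2.77e-06) and 1.32-fold against naive cells (log2 fold change -0.40 ± 0.08 SE, edgeR adjusted p = 0.000158), while Pt-resistant and naive cells did not differ past the threshold (log2 fold change 0.15 ± 0.08 SE, edgeR adjusted p = 0.109). The counts do not separate the SREBF1 transcripts for SREBP-1a and SREBP-1c.

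SCAP, the escort, had 52.6, 53.7 and 55.3 CPM in EPZ015666-treated cells, 58.6, 55.8 and 52.4 CPM in Pt-resistant cells, and 77.1, 72.0 and 62.6 CPM in naive cells. Both groups of Pt-resistant cells were below naive cells, with log2 fold changes of -0.35 ± 0.08 (SE, edgeR adjusted p = 0.00121) without the inhibitor and -0.39 ± 0.09 (SE, edgeR adjusted p = 0.000346) with it, and they overlapped with each other. INSIG2 had 27.3, 24.6 and 28.6 CPM in EPZ015666-treated cells, 18.1, 19.0 and 17.8 CPM in Pt-resistant cells, and 15.2, 11.7 and 13.7 CPM in naive cells. Its 3 groups were separate, with EPZ015666-treated cells 1.47-fold above Pt-resistant cells (log2 fold change 0.55 ± 0.10 SE, edgeR adjusted p = 6.29e-05) and 1.98-fold above naive cells (log2 fold change 0.99 ± 0.11 SE, edgeR adjusted p = 2.64e-08). Between Pt-resistant and naive cells its log2 fold change was 0.43 ± 0.11 (SE, edgeR adjusted p = 0.00152).

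INSIG1, itself a well-known SREBP target, had 159.5, 157 and 149 CPM in EPZ015666-treated cells, 99.8, 113 and 108 CPM in Pt-resistant cells, and 153, 101 and 139.9 CPM in naive cells. It rose with EPZ015666 against Pt-resistant cells, by 1.45-fold (log2 fold change 0.54 ± 0.11 SE, edgeR adjusted p = 0.000107), with no overlap. Naive libraries were spread over the whole range, with replicate 2 near the Pt-resistant ones, and both calls against naive cells turned on single libraries. In Pt-resistant against naive cells the log2 fold change was -0.30 ± 0.11 (SE, edgeR adjusted p = 0.0182), with -0.17 (adjusted p = 0.179) without naive replicate 1, -0.25 (adjusted p = 0.0738) without naive replicate 3 and -0.46 without naive replicate 2. In EPZ015666-treated against naive cells it was 0.24 ± 0.10 (SE, edgeR adjusted p = 0.0491), with 0.08 (adjusted p = 0.456) without naive replicate 2, 0.36 without naive replicate 1, and 0.22 to 0.27 (adjusted p = 0.0568 to 0.116) without any 1 of the EPZ015666-treated replicates. STARD4, which carries sterols between membranes, had 82.1, 86.5 and 78.3 CPM in EPZ015666-treated cells, 86.9, 99.7 and 94.7 CPM in Pt-resistant cells, and 98.1, 91.8 and 95.2 CPM in naive cells. EPZ015666-treated libraries were slightly below all others, with log2 fold changes of -0.19 ± 0.08 (SE, edgeR adjusted p = 0.0377) against Pt-resistant cells and -0.21 ± 0.08 (SE, edgeR adjusted p = 0.0234) against naive cells. The first call was lost without EPZ015666-treated replicate 1 or 3 or Pt-resistant replicate 2 or 3 (-0.19 to -0.14, adjusted p = 0.0856 to 0.159), and the second without EPZ015666-treated replicate 1 or 3 or naive replicate 1 or 3 (-0.21 to -0.17, adjusted p = 0.0502 to 0.107).

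Replicates of a group did not scatter alike in the branches. For the sterol enzymes the median SD of log2 CPM was 0.07 in EPZ015666-treated, 0.11 in Pt-resistant and 0.18 in naive cells, against 0.12, 0.12 and 0.13 for all genes tested in the same order of groups. Naive replicate 2 lay at a median of -0.18 (log2) from its group's mean over the 17 sterol enzymes and at -0.11 over the 8 fatty acid enzymes, and Pt-resistant replicate 1 at -0.12 over the sterol enzymes and at 0.04 over the fatty acid enzymes. Over all genes tested both libraries were within 0.01 of their group's mean. Without naive replicate 2, the 17 sterol enzymes split into 9 lower in Pt-resistant than in naive cells, and FDPS and PMVK were no longer called higher; the count of fatty acid enzymes called lower stayed at 8. Without Pt-resistant replicate 1, 6 sterol enzymes were higher and 4 lower with EPZ015666 against Pt-resistant cells.

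**Figure D5:**
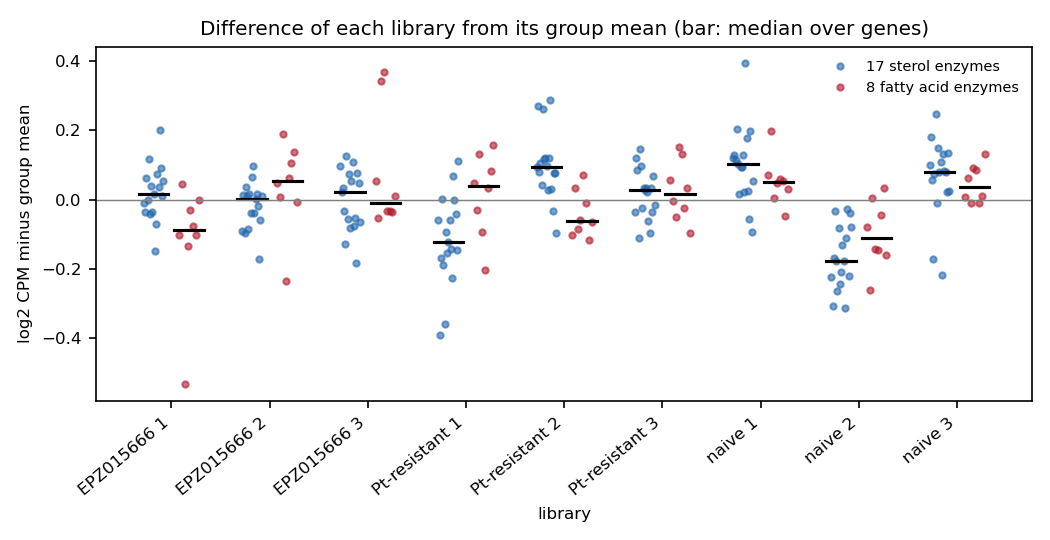
Each point is the log2 CPM of an enzyme in a library minus the mean of that library's group, in blue for the 17 sterol enzymes and in red for the 8 fatty acid enzymes, with black bars for the median. The blue points of naive replicate 2 (median -0.18) and Pt-resistant replicate 1 (median -0.12) lie mostly below 0.

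Beyond the 31 genes, 69 other genes of lipid metabolism were listed and 66 could be tested. In Pt-resistant against naive cells 18 were higher and 29 lower, 71.2% of those tested against 59.1% of all genes. With EPZ015666 against Pt-resistant cells 22 were higher and 18 lower, 60.6% against 62.4% of all genes, which is the background share. In EPZ015666-treated against naive cells 21 were higher and 29 lower, 75.8% against 63.4% of all genes. The 3 comparisons are given in this order for each list that follows. Of 19 tested genes of other fatty acid synthesis steps, 5 were higher and 10 lower, 8 higher and 3 lower, and 7 higher and 7 lower. Of 12 genes of fatty acid activation and lipid assembly, 1 was higher and 8 lower, 5 higher and 3 lower, and 3 higher and 7 lower. Of 10 genes of SREBP processing and sterol-regulated degradation, 5 were higher and 1 lower, 2 higher and 5 lower, and 3 higher and 4 lower. Of 9 genes of other sterol synthesis steps, 2 were higher and 4 lower, 2 higher and 4 lower, and 1 higher and 4 lower. Of 16 genes of sterol uptake, efflux and storage, 5 were higher and 6 lower, 5 higher and 3 lower, and 7 higher and 7 lower.

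Of the called genes outside the 31, the 3 with the largest log2 fold change in each comparison follow. In Pt-resistant against naive cells ELOVL3, an elongase, had -3.00 ± 0.52 (SE, edgeR adjusted p = 2.76e-05), the sterol exporter ABCG1 had 2.31 ± 0.20 (SE, edgeR adjusted p = 5.44e-10), and ELOVL2, an elongase of polyunsaturated fatty acids, had -2.08 ± 0.14 (SE, edgeR adjusted p = 6.97e-12). ELOVL3 had 0.946, 0.334 and 0.595 CPM in EPZ015666-treated cells, 0.120, 0.160 and 0.104 CPM in Pt-resistant cells, and 1.13, 0.755 and 1.32 CPM in naive cells, and its Pt-resistant libraries held 2, 3 and 2 counts, so that its fold change is uncertain. ELOVL2 had 15.3, 14.6 and 15.3 CPM in EPZ015666-treated cells, 3.36, 2.82 and 3.17 CPM in Pt-resistant cells, and 13.1, 12.0 and 14.3 CPM in naive cells. Its Pt-resistant libraries lay far below all others, and with EPZ015666 the log2 fold change against Pt-resistant cells was 2.27 ± 0.13 (SE, edgeR adjusted p = 1.07e-12). ABCG1 had 1.48, 1.00 and 1.61 CPM in EPZ015666-treated cells, 9.67, 9.47 and 8.56 CPM in Pt-resistant cells, and 1.53, 2.54 and 1.57 CPM in naive cells, so that only the Pt-resistant libraries were high, and with EPZ015666 the log2 fold change was -2.74 ± 0.21 (SE, edgeR adjusted p = 6.26e-11). ACSL5, which activates long-chain fatty acids, had 22.2, 25.2 and 25.1 CPM in EPZ015666-treated cells, 5.34, 4.15 and 4.98 CPM in Pt-resistant cells, and 17.8, 16.8 and 17.9 CPM in naive cells and a log2 fold change of 2.32 ± 0.12 (SE, edgeR adjusted p = 1.11e-13) with EPZ015666 against Pt-resistant cells. In EPZ015666-treated against naive cells the sterol reductase TM7SF2 had -2.89 ± 0.10 (SE, edgeR adjusted p = 1.92e-17), the sterol exporter ABCA1 had 1.72 ± 0.12 (SE, edgeR adjusted p = 7.41e-12) and SOAT1, which esterifies cholesterol for storage, had 1.60 ± 0.09 (SE, edgeR adjusted p = 1.58e-13). ABCA1 had 29.9, 31.6 and 27.6 CPM in EPZ015666-treated cells, 35.4, 33.5 and 28.6 CPM in Pt-resistant cells, and 7.89, 10.4 and 8.87 CPM in naive cells, with the naive libraries far below all others. TM7SF2 had 14.4, 12.1 and 12.3 CPM in EPZ015666-treated cells, 49.4, 51.1 and 50.1 CPM in Pt-resistant cells, and 104, 86.8 and 96.0 CPM in naive cells, lowest in EPZ015666-treated cells without overlap. SOAT1 had 181, 169.8 and 168 CPM in EPZ015666-treated cells, 59.9, 61.4 and 58.6 CPM in Pt-resistant cells, and 62.0, 47.9 and 60.6 CPM in naive cells, which puts the difference in the EPZ015666-treated libraries alone.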

How the data were processed

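RNA-seq of OVCAR4 wells, 3 per group, was analysed. According to the study's methods, libraries were made with a directional kit, reads were checked with FastQC, and the authors counted reads per gene with STAR and compared groups with DESeq2, with resistant cells as reference. The deposited values are raw whole-number counts per gene. Genome build, annotation and strand column: not given in the sources used here. Reads that align to more than 1 place or lie in more than 1 gene are not counted by STAR.

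Ensembl IDs of 61369 of 61487 rows were matched to symbols. The test was edgeR 4.0.16 in R 4.3.3: filterByExpr (minimum count 10) kept 14630 genes with 99.88% of counts, libraries were scaled by TMM, and 1 quasi-likelihood fit without covariates over all 9 libraries gave 3 comparisons, each adjusted by Benjamini-Hochberg over all genes tested at a threshold of 0.05. The SE is the log2 fold change divided by the root of F. CPM are counts relative to TMM-scaled totals, and levels per kilobase use the exon union in GENCODE 29. The biological coefficient of variation was 7.66%, and the depth of 14320929 to 19114811 counts per library limits the precision. All pairs of replicates differed by more than counting noise (chi-square per degree of freedom 5.50 to 12.1). The scripts were tested on simulated data.

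The 31 genes, the 5 other lists and the alternatives were chosen with earlier results of these data known. Values in every library are given for at most 5 sterol and 4 fatty acid enzymes per comparison, those of largest log2 fold change among called genes whose groups did not overlap, for all regulators and STARD4, and of the other lists for the 3 called genes of largest log2 fold change per comparison. Alternatives were RLE and library-size scaling, DESeq2 1.42.0, limma 3.58.1 with voom, no low-count filter, a filter at 1 CPM in 3 libraries, the 2 groups alone, a replicate block, a 2-fold minimum, and each library left out in turn.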

Additional observations from a re-analysis of the deposited data

How the results depend on the processing

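Of 1302 recomputed log2 fold changes of the 31 genes, 1243 stayed on the same side of the threshold, 48 lost their call and 11 gained one. The sign changed in 36, all of them uncalled under both settings, for 13 genes. A 2-fold minimum left 4 lower and 0 higher of the 31 genes in Pt-resistant against naive cells (1 sterol and 3 fatty acid enzymes). It left 0 in either direction with EPZ015666 against Pt-resistant cells. In EPZ015666-treated against naive cells it left 2 lower, both fatty acid enzymes, and 0 higher. It left 0 regulators. The share of all genes tested that passes this minimum was not computed, so these counts cannot be set against it. In Pt-resistant against naive cells, sterol enzymes called higher numbered 1, not 2, with RLE, library size, DESeq2, no low-count filter and the 2 groups alone. With no low-count filter, 2 fatty acid enzymes, not 1, were lower with EPZ015666 against Pt-resistant cells. In EPZ015666-treated against naive cells, members called higher numbered 3 with library size and 2 with DESeq2, not 5, sterol enzymes called higher 1, not 3, with DESeq2, and regulators called higher 1, not 2, with library size, DESeq2 and the replicate block. Leaving out 1 library gave 2 to 4 members higher and 0 to 2 sterol enzymes higher in Pt-resistant against naive cells, 1 to 2 fatty acid enzymes lower with EPZ015666 against Pt-resistant cells, 3 to 5 members and 1 to 2 regulators higher in EPZ015666-treated against naive cells, and 1 to 2 regulators lower in Pt-resistant against naive cells; the other counts of all members, sterol enzymes, fatty acid enzymes and regulators stayed within 1.5 times.

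Replicate numbers are shared by the groups, but same-numbered libraries did not deviate together (correlations of -0.08 to 0.10), so the numbers were not taken as pairs. With a replicate block the members called were 4 higher and 18 lower, 14 higher and 7 lower, and 4 higher and 15 lower in the 3 comparisons in the order above, and INSIG1 in EPZ015666-treated against naive cells was no longer called (0.25, adjusted p = 0.0541). Library size alone moved the median of all genes by at most 0.06. Precision was lowest for HSD17B7, the member of lowest level (SE 0.14 in each comparison): its Pt-resistant and naive libraries (7.29 to 7.63 and 6.13 to 6.73 CPM) did not overlap, yet it did not pass (0.23, adjusted p = 0.17). The strand column, overlapping genes (most in ACAT2 and CYP51A1) and pseudogenes (counts at 4.84% of those of HSD17B7) limit single genes. Genes on the opposite strand also overlapped 18.6% of the exon bases of FDPS, 15% of HMGCS1 and 14.8% of IDI1. The mRNA says nothing of enzyme activity or lipid levels.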

Other observations

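The late sterol step that reduces the sterol C14 double bond can be carried out by 2 proteins, TM7SF2 and the inner nuclear membrane protein LBR, and the pair was looked at side by side after its values were seen. TM7SF2 was highest in naive and lowest in EPZ015666-treated libraries, without overlap, and its log2 fold change was -0.93 ± 0.09 (SE, edgeR adjusted p = 1.95e-09) in Pt-resistant against naive cells and -1.96 ± 0.10 (SE, edgeR adjusted p = 6.20e-14) with EPZ015666 against Pt-resistant cells. LBR had 125, 129 and 114 CPM in EPZ015666-treated cells, 129, 119 and 119 CPM in Pt-resistant cells, and 92.5, 80.0 and 85.3 CPM in naive cells. It was higher than in naive cells in both Pt-resistant cells (log2 fold change 0.51 ± 0.08 SE, edgeR adjusted p = 7.37e-06) and EPZ015666-treated cells (log2 fold change 0.51 ± 0.08 SE, edgeR adjusted p = 5.51e-06), and the 2 Pt-resistant groups overlapped (log2 fold change 0.00 ± 0.08 SE, edgeR adjusted p = 0.968). 

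The stearoyl-CoA desaturases differed as well. SCD5, the second human enzyme of this kind, had 62.3, 61.1 and 52.1 CPM in EPZ015666-treated cells, 34.4, 35.1 and 30.8 CPM in Pt-resistant cells, and 53.1, 45.5 and 44.1 CPM in naive cells. It rose with EPZ015666 against Pt-resistant cells (log2 fold change 0.81 ± 0.09 SE, edgeR adjusted p = 9.85e-08), where SCD fell, and was lower in Pt-resistant than in naive cells (log2 fold change -0.51 ± 0.10 SE, edgeR adjusted p = 6.76e-05), as SCD was. SPRING1, a Golgi protein known to be needed for SREBP cleavage, had 67.6, 70.0 and 68.8 CPM in EPZ015666-treated cells, 47.9, 59.8 and 52.2 CPM in Pt-resistant cells, and 116, 103 and 108 CPM in naive cells, with log2 fold changes of -1.03 ± 0.08 (SE, edgeR adjusted p = 3.05e-10) in Pt-resistant against naive cells and 0.37 ± 0.09 (SE, edgeR adjusted p = 0.000653) with EPZ015666 against Pt-resistant cells. The proteases that cleave SREBPs, MBTPS1 and MBTPS2, were both lower with EPZ015666 than in Pt-resistant cells. The log2 fold changes were -0.64 ± 0.08 (SE, edgeR adjusted p = 4.04e-07) for MBTPS1 and -0.50 ± 0.08 (SE, edgeR adjusted p = 9.76e-06) for MBTPS2. In Pt-resistant against naive cells MBTPS1 was higher (0.26 ± 0.08 SE, edgeR adjusted p = 0.0079), unlike SPRING1, and MBTPS2 did not pass (0.10 ± 0.08 SE, edgeR adjusted p = 0.29). In EPZ015666-treated against naive cells both were lower (-0.38 for MBTPS1 and -0.40 for MBTPS2). These genes were picked from the wider lists after their values were seen, and no explanation was tested.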
